A study of Mus musculus with 17 samples.

Results

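The tripartite motif (TRIM) genes encode a family of proteins, most of them ubiquitin ligases. The mouse members were followed here in the spleen after injection of immunostimulatory RNA. Members were the lines of the deposited expression table whose gene name is Trim followed by a number and, for some, a letter from a to e. They numbered 66 of the 38340 named genes, after 1 further matching name was left out. RNA sequencing had been done on 17 spleen libraries of mice, whose strain the labels spell CB57BL/6NCrl, with no genetic alteration named. The groups were SLR10 (3 libraries), SLR14 (3), poly(I:C) (3), pppNS (3), a vehicle that the series' design text names as jetPEI (2) and untreated mice, called naive here (3). SLR10 and SLR14 are short stem-loop RNAs known as agonists of the cytosolic RNA sensor RIG-I, poly(I:C) mimics viral double-stranded RNA, and pppNS is named in the labels without a description. The protocol printed with every sample speaks only of the SLRs: 25 µg of RNA in 200 µl went into a vein, carried by the polyethylenimine reagent in vivo-jetPEI at an N/P ratio of 8. The same text stands with the poly(I:C), pppNS, vehicle and naive samples, so the doses of the other RNAs are not stated separately, nor are the ages of the mice or the time from injection to collection. The design text speaks of triplicate or duplicate samples of mice without saying that each library came from a separate animal, so the p-values measure the spread between these samples.

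Most TRIM proteins have a RING domain, which passes ubiquitin from a conjugating enzyme to a substrate, followed by B-box and coiled-coil regions through which they assemble. The carboxy-terminal domain varies between members and sets what is bound, from retroviral capsids to antibodies and transcription factors. Several members build ubiquitin chains on RNA and DNA sensing proteins or their adaptors, and some are themselves induced by interferon. Others act in chromatin, muscle, nerve or maturing red cells.

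The libraries held 26.5 to 42.8 M reads, of which 15.8 to 29.6 M fell on named genes, and 1 read was worth 0.0175 to 0.0431 CPM (the table's own scaled unit, reads over a normalised library size). A gene entered the test if it reached 1 CPM in at least 2 libraries. This left 14012 genes, among them 43 of the 66 TRIM genes. Changes are differences of log2(CPM + 0.5), with a standard error (SE) or a 95% interval from a single limma model of all 17 libraries, and "rose" or "fell" means an adjusted p under 0.05 over all genes tested. A fold is the same difference put back on a linear scale. The added 0.5 draws the change of low genes towards 0. Marker genes of B cells (6 of 6 listed), T cells (6 of 6) and red pulp macrophages (5 of 6) were detected, with no measured marker at 0 in all 17 libraries. A set of 8 interferon-stimulated genes summed to 9569 to 15498 CPM with SLR10, SLR14 and poly(I:C), 2020 to 6122 with pppNS, 262 to 274 with vehicle and 193 to 235 in naive mice.

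Erythroid markers (10 of 12 listed were measured) stood apart in single libraries. They summed to 32567 CPM in SLR14 replicate 2, to 40229 and 20803 in poly(I:C) replicates 2 and 3, and to 8334 to 75500 in pppNS, against 3055 to 5534 in the other SLR10, SLR14, poly(I:C) and vehicle libraries. Naive libraries held 4432 to 13027. Results that rest on those libraries are given with and without them.

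With SLR10, 14 of the 43 tested TRIM genes rose and 12 fell, and with SLR14 again 14 rose and 12 fell. With poly(I:C), 13 rose and 12 fell. With pppNS, 7 rose and 1 fell. Over all genes tested, 20.2% rose and 19.2% fell with SLR10, 19.3% and 19.4% with SLR14, 18.6% and 17.3% with poly(I:C), and 2.95% and 1.35% with pppNS. The TRIM shares were 32.6% and 27.9% with each SLR, 30.2% and 27.9% with poly(I:C), and 16.3% and 2.33% with pppNS. The median log2 change over the tested TRIM genes was -0.19, -0.09, 0.05 and 0.26 in that order, beside -0.01, 0.04, 0.07 and 0.01 over all genes. All of these comparisons share the same 2 vehicle libraries. Under quantile scaling the median of all genes with poly(I:C) moved from 0.07 to -0.09, and over all genes the calls that were higher went from 51.8% (2606 higher, 2424 lower) to 39.2% (1961 higher, 3045 lower). With pppNS they went from 68.7% (414 higher, 189 lower) to 53.6% (374 higher, 324 lower).

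The same 13 genes were higher with SLR10, SLR14 and poly(I:C): Trim12a, Trim12c, Trim14, Trim21, Trim26, Trim28, Trim30a, Trim30b, Trim30c, Trim30d, Trim34a, Trim56 and Trim69. Another 10 were lower with all 3 RNAs: Trim3, Trim5, Trim7, Trim16, Trim35, Trim36, Trim41, Trim46, Trim62 and Trim68. Of the higher genes, 7 also rose with pppNS (Trim12c, Trim21, Trim30a, Trim30c, Trim30d, Trim34a and Trim56), and of the lower genes Trim5 also fell. A further 15 tested genes were called with none of the 4 RNAs. The same overlap was not counted over all genes, so it is not shown to be particular to TRIM genes. These comparisons share the vehicle libraries. Among the 13, Trim69 reached 1 CPM only with SLR10, SLR14 and poly(I:C). Among the 10, Trim16 and Trim46 reached it only with pppNS or in the controls. The filter thus let these genes in through groups where their levels were higher. With no filter their calls with SLR10, SLR14 and poly(I:C) held. Over all genes 0% were called between SLR14 and SLR10, and 1.66% were higher and 1.86% lower with the SLRs than with poly(I:C).

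The family's share of reads on named genes was 0.298% in both vehicle libraries and 0.23% to 0.276% in the naive ones. It was 0.614% to 0.639% with SLR10, 0.576% to 0.664% with SLR14, 0.6% to 0.72% with poly(I:C) and 0.302% to 0.512% with pppNS. Trim30a, Trim30d and Trim56 took 51.7% to 52.4% of the TRIM reads with SLR10, against 20.3% to 21.6% with vehicle. More reads thus lay on TRIM genes with SLR10, SLR14 and poly(I:C), although nearly as many members fell as rose.

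**Figure D1:**
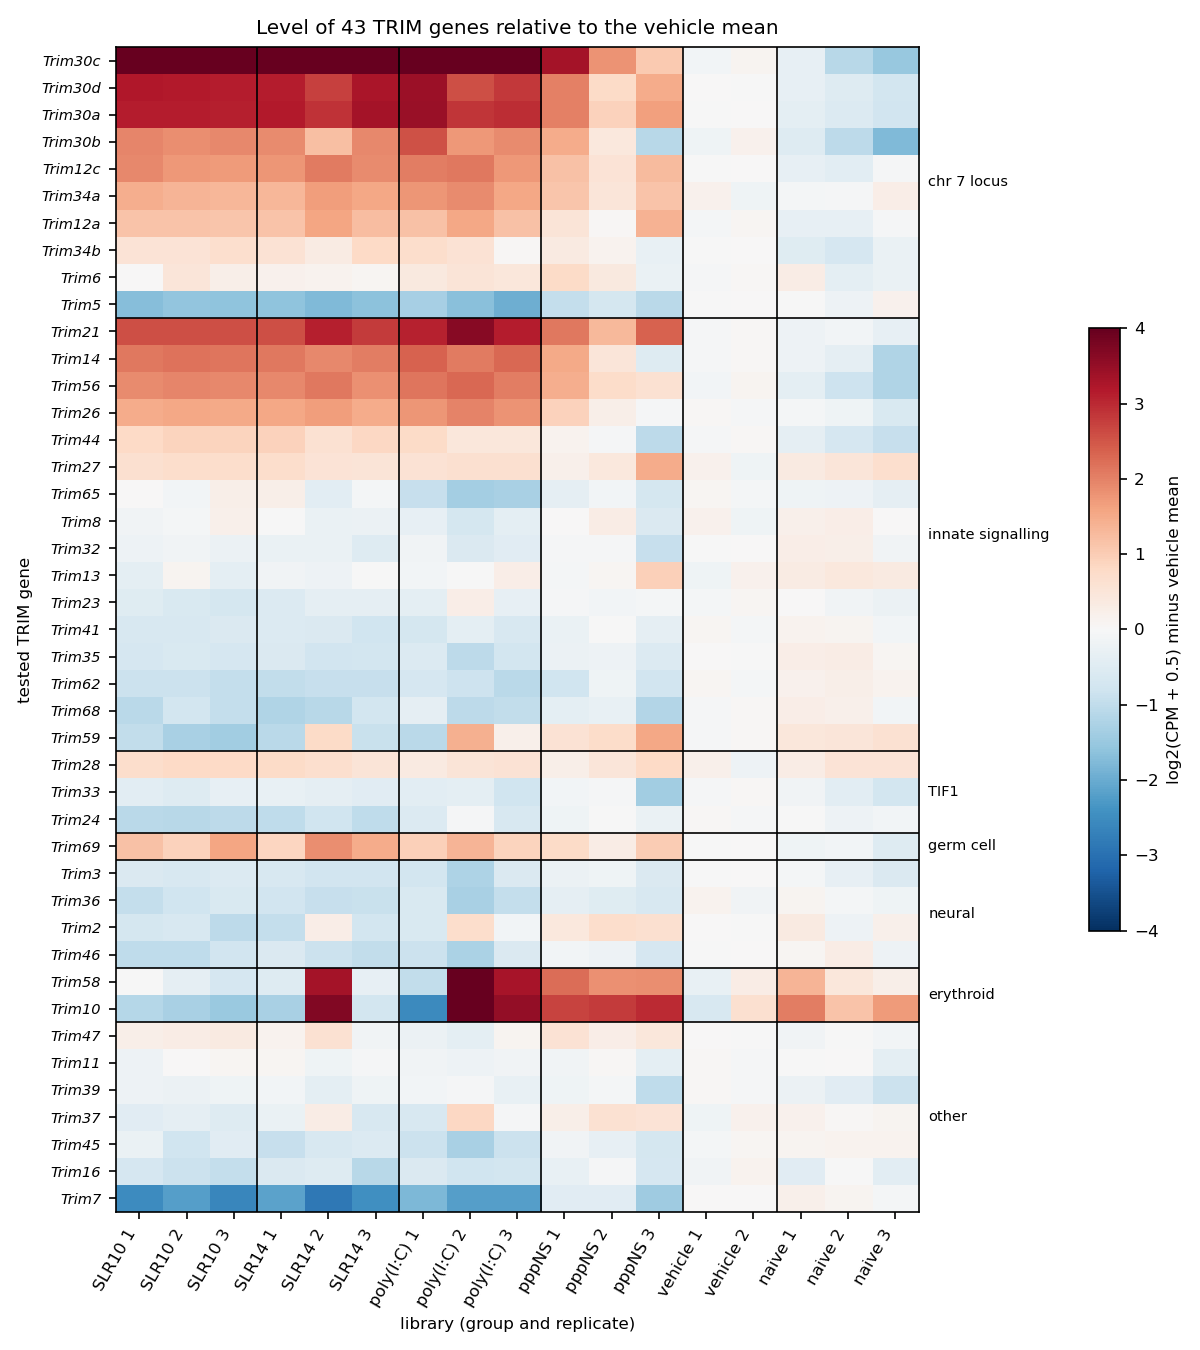
Level of the 43 tested TRIM genes (rows, grouped by list) in each of 17 libraries (columns), as log2(CPM + 0.5) minus the vehicle mean, with red higher and blue lower. The colours stop at 4 in either direction, which Trim30c, Trim10 and Trim58 pass in some libraries. Most of the chromosome 7 locus is red with SLR10, SLR14 and poly(I:C) and paler with pppNS, while Trim5 is blue.

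A group of 10 TRIM genes lies together on mouse chromosome 7, at chr7:104218793-104507849 (GRCm38, GENCODE vM21), a stretch of 289 kb. This rodent cluster corresponds to the human region of TRIM5, a cytoplasmic restriction factor that binds incoming retroviral capsids. In order of position they are Trim6, Trim34a, Trim5, Trim12a, Trim34b, Trim12c, Trim30b, Trim30c, Trim30a and Trim30d. With SLR10, with SLR14 and with poly(I:C), the same 7 of the 10 rose (the 4 Trim30 genes, Trim12a, Trim12c and Trim34a) and 1, Trim5, fell, where 18.6% to 20.2% of all genes rose and 17.3% to 19.4% fell. With pppNS 5 rose and 1 fell, beside 2.95% and 1.35% of all genes. Many of these genes are near copies of one another, so reads may have been shared or lost between them in the authors' counting, and each value is uncertain to that extent.

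Trim30a, whose product is known to restrain Toll-like receptor signalling, had the highest level of all TRIM genes per length of exon in every group but the naive mice, where Trim34a (35.4 CPM per kb) and Trim28 (27.7) were above it (26.3). It stood at 38.9 CPM per kb with vehicle and 341 CPM per kb with SLR10. Its libraries read 1410, 1419 and 1373 CPM with SLR10, 1456, 1200 and 1599 with SLR14, and 1755, 1160 and 1242 with poly(I:C). They read 645, 303 and 502 CPM with pppNS, 159 and 161 with vehicle, and 121, 109 and 93.7 in naive mice. No library given an RNA overlapped the vehicle or naive libraries, and those given pppNS lay below all those given the other RNAs. The rise was 8.74-fold with SLR10 (95% interval 5.86 to 13), 8.79-fold with SLR14, 8.5-fold with poly(I:C) and 2.88-fold with pppNS (1.93 to 4.3).

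Trim30c showed the largest rise of the family with SLR10, SLR14 and poly(I:C). It read 130, 132 and 134 CPM with SLR10, 138, 91.2 and 149 with SLR14, and 220, 119 and 139 with poly(I:C). The pppNS libraries read 49.3, 16.8 and 9.71 CPM, those of vehicle 4.08 and 4.87, and the naive ones 3.43, 1.78 and 1.22. The log2 change was 4.74 (SE 0.51) for SLR10, 4.64 for SLR14, 4.96 for poly(I:C) and 2.06 for pppNS. Those 3 pppNS libraries differ among themselves by several fold, yet each lies above both vehicle libraries.

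Trim30d, the neighbour of Trim30a, rose alongside it, by 3.17 for SLR10, 3.05 for SLR14, 2.94 for poly(I:C) and 1.42 for pppNS on the log2 scale (SE 0.31 each). Its mean went from 53.1 ± 0.19 CPM with vehicle (SD, n = 2) to 483 ± 11.1 with SLR10 (SD, n = 3). Trim30b rose less and varied more: its mean was 75 ± 2.18 CPM with SLR10 against 19.8 ± 3.51 with vehicle. Its change was 1.91 (SE 0.55) for SLR10, 1.68 for SLR14 and 2.06 for poly(I:C), but 0.26 with pppNS, which was not called. The pppNS libraries of Trim30b read 55.7, 26.3 and 8.82 CPM, on both sides of the vehicle values of 17.3 and 22.3.

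Trim12c and Trim34a, relatives of TRIM5 and TRIM34, rose with all 4 RNAs. Trim12c went from 68.2 and 71.2 CPM with vehicle to 263, 231 and 230 with SLR10 and 157, 103 and 168 with pppNS. Its log2 change was 1.78 for SLR10, 1.91 for SLR14, 1.96 for poly(I:C) and 0.99 for pppNS (SE 0.20 each). Trim34a changed by 1.39, 1.52, 1.73 and 0.91 in the same order, from vehicle values of 99.4 and 79.2 CPM. Trim12a rose by 1.13 for SLR10, 1.32 for SLR14 and 1.30 for poly(I:C) (SE 0.29 each). With pppNS it read 110, 79.8 and 206 CPM against 74.2 and 81.1 with vehicle, a change of 0.65 that was not called.

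Trim5 was the member of the cluster that went the other way. Its libraries read 9.5, 10.6 and 10.2 CPM with SLR10, 10.3, 9.14 and 10.1 with SLR14, and 12.5, 9.84 and 7.88 with poly(I:C). They read 16.6, 19.5 and 14.9 CPM with pppNS, 31.6 and 33 with vehicle, and 31.6, 28 and 36.3 in naive mice. Each library given an RNA lay below every vehicle and naive library, and pppNS lay between. The level was 3.09-fold lower than vehicle with SLR10 (95% interval 2.36 to 4.05), 3.17-fold lower with SLR14, 3.15-fold lower with poly(I:C) and 1.88-fold lower with pppNS. Trim6 and Trim34b were low throughout, at 0.805 to 2.38 and 0.28 to 1.64 CPM, and were not called against vehicle with any RNA by limma on all libraries. Trim34b was called higher with SLR10, SLR14 and poly(I:C) with the mean level of erythroid markers as a covariate (the erythroid covariate) and with naive and vehicle together as the control, with both SLRs under quantile scaling, with SLR14 without SLR14 replicate 2, and with poly(I:C) without poly(I:C) replicate 3. Trim6 was called higher with poly(I:C) under quantile scaling and with naive and vehicle together.

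**Figure D2:**
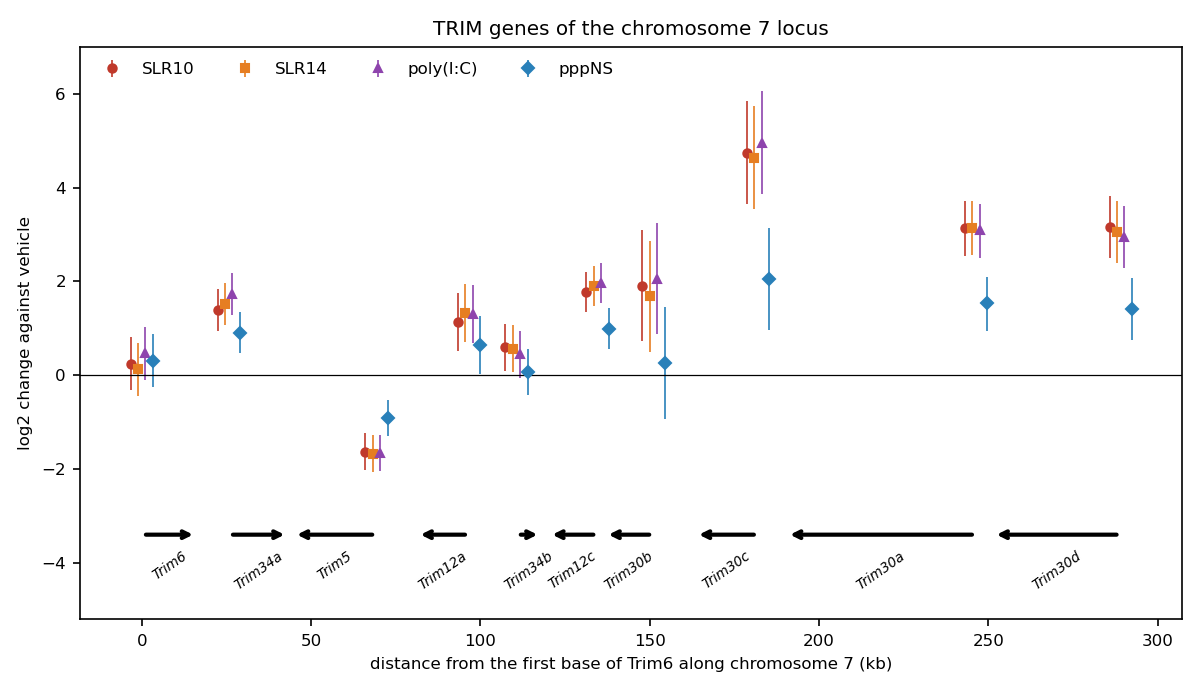
Log2 change against vehicle (vertical axis, with 95% intervals) of the 10 genes of the chromosome 7 locus for each RNA, placed at the start of each gene in kb from the first base of Trim6; arrows below show each gene's extent and direction. Trim30c reaches 4.74 with SLR10 and Trim5 lies at -1.63, and for Trim30a to Trim30d pppNS lies below the other RNAs.

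Outside pppNS, the calls in the locus that depended on 1 library were those of Trim30b and Trim12a. Trim30b was not called without vehicle replicate 1, at 1.73 with SLR10 and 1.88 with poly(I:C), and with SLR14 it was lost without vehicle replicate 1 or 2 or SLR14 replicate 1 or 3, at no more than 1.86. Trim12a lost its call with SLR10 without vehicle replicate 1 (1.06), and with SLR10 and poly(I:C) under quantile scaling.

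Stretches of the promoter windows are shown because those of Trim5, Trim12a and Trim12c are nearly alike while Trim5 fell and the other two rose, and those of Trim30a, Trim30c and Trim30d to compare copies that rose together. Trim26, on another chromosome, is shown for its longer match. RefSeq windows (GRCm38.p6, 250 bases before to 50 after a start) were at hand for 51 of the TRIM genes, 65 windows in all. They were searched on both strands for GAAA followed after any 2 bases by GAAA, the core of the interferon-stimulated response element (ISRE) bound by interferon regulatory factors. It occurred in 3.44% of all 32851 windows and in 10 of the 65 TRIM windows. Those belonged to 9 TRIM genes: Trim2, Trim5, Trim12a, Trim12c, Trim21, Trim26, Trim30a, Trim30d and Trim34a. Of these 9, 7 were higher with SLR10, SLR14 and poly(I:C), Trim5 was lower and Trim2 was not called. Of those 7, all but Trim21 and Trim26 lie in the chromosome 7 locus. Of all 43 tested TRIM genes 13 were higher with these RNAs, and 18.6% to 20.2% of all genes rose with each. Trim28, Trim30b, Trim30c, Trim56 and Trim69 were among the 13, and their windows held no match. That of Trim30b lies inside the gene as GENCODE places it (chr7:104355382-104369884, minus strand), so the sequence at that start was not searched. No window was at hand for Trim14. In the stretches below, read along the gene, capitals mark the match or its reverse complement, or for Trim30c the 10 bases most like the match of Trim30a.
Trim5 (chr7:104288116-104288185, minus strand): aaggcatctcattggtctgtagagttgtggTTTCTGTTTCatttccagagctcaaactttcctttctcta
Trim12c (chr7:104353339-104353408, minus strand): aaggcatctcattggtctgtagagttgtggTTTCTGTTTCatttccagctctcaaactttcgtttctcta
Trim30a (chr7:104465190-104465259, minus strand): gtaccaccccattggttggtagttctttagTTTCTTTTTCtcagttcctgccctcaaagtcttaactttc
Trim30d (chr7:104507851-104507920, minus strand): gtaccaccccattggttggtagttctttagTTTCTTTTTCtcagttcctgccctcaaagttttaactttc
Trim30c (chr7:104400876-104400945, minus strand): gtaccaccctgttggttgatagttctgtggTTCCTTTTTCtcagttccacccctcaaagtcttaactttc
Trim26 (chr17:36836956-36837031, plus strand): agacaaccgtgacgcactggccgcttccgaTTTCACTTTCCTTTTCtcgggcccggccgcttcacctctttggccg

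The stretch of Trim12a has the same letters as that of Trim5 at 70 of 70 positions, and that of Trim12c at 67 of 70. Trim30a and Trim30d share 69 of 70 positions, and Trim30a and Trim30c 62 of 70. Within the 10 bases in capitals Trim30c differs from Trim30a by T3C, counted from the first of the 10, and its window holds no match. Trim34a carries TTTCAGTTTC and Trim21 carries GAAACTGAAAGTGAAA, both just after the start. A match is a description of letters and was not tested as a site. TTCNNNGAA, the interferon-gamma activated sequence (GAS), occurred in 8.3% of all windows and in 7 of the 65 TRIM windows, of 6 TRIM genes.

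Among 16 tested members that the literature links to antiviral or inflammatory signalling, 5 rose with SLR10 and 5 fell. With SLR14 5 rose and 4 fell, with poly(I:C) 4 rose and 5 fell, and with pppNS 2 rose and none fell. These are 31.2% each way with SLR10, beside 20.2% and 19.2% of all genes, and 12.5% higher with pppNS, beside 2.95%. Trim21, Trim14, Trim56 and Trim26 rose with SLR10, SLR14 and poly(I:C), and Trim44 with both SLRs. Trim35, Trim41, Trim62 and Trim68 fell with those 3 RNAs.

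Trim21 encodes the cytosolic antibody receptor, which binds the Fc part of antibody-coated virus. It read 183, 183 and 184 CPM with SLR10, 184, 268 and 213 with SLR14, and 263, 387 and 271 with poly(I:C). With pppNS it read 133, 74.7 and 157 CPM, with vehicle 29.5 and 31.3, and in naive mice 26.6, 28.2 and 23.9. Every library given an RNA lay above every control. The rise was 5.95-fold with SLR10 (95% interval 4.02 to 8.8), 7.12-fold with SLR14, 9.8-fold with poly(I:C) and 3.77-fold with pppNS. Its rise with pppNS was called also without vehicle replicate 1 and without vehicle replicate 2.

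Trim56, whose product is linked to DNA-sensor signalling and antiviral activity, read 309, 322 and 316 CPM with SLR10 and 316, 364 and 299 with SLR14. It read 373, 412 and 344 CPM with poly(I:C), 232, 139 and 128 with pppNS, 77.3 and 90.5 with vehicle, and 63.4, 47.2 and 36.3 in naive mice. The groups given an RNA did not overlap the controls. Its log2 change was 1.91 for SLR10, 1.95 for SLR14, 2.16 for poly(I:C) and 0.94 for pppNS (SE 0.25 each).

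Trim14, an adaptor at mitochondria that lacks the RING domain, read 64.1, 67.2 and 65.6 CPM with SLR10 and 14 and 14.9 with vehicle. With pppNS its libraries read 42, 20.2 and 9.89 CPM, on both sides of vehicle. The rise was 4.42-fold with SLR10, 4.04-fold with SLR14 and 4.73-fold with poly(I:C), and the change with pppNS was 0.49 on the log2 scale and not called. Trim26 rose 2.86-fold with SLR10, 2.96-fold with SLR14 and 3.58-fold with poly(I:C), from 86.7 and 81.9 CPM with vehicle. Trim44, another member without a RING, went from 73.8 and 80.4 CPM with vehicle to 134, 142 and 142 with SLR10, 1.8-fold (1.2 to 2.7). Its change with poly(I:C), 0.56 on the log2 scale, was not called, though it was called under the erythroid covariate and with naive and vehicle together as the control. Its SLR10 call was lost when vehicle replicate 1 or 2 or SLR10 replicate 2 or 3 was left out, and its SLR14 call when vehicle replicate 1 or 2 or SLR14 replicate 1 or 3 was. Both were lost under quantile scaling, and the SLR14 call also with no filter.

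Trim35, Trim41 and Trim62 fell modestly with the 3 RNAs, by 0.65, 0.61 and 0.89 on the log2 scale with SLR10. Trim35 read 31.5, 33.2 and 32.1 CPM with SLR10 against 51.4 and 50.6 with vehicle. Trim62 read 1.69, 1.72 and 1.58 CPM against 3.71 and 3.3. Neither group pair overlapped. Trim68, a relative of Trim21, fell by 0.91 for SLR10, 1.01 for SLR14 and 0.80 for poly(I:C) (SE 0.27 each), but lost its calls without vehicle replicate 2 (with SLR10 and poly(I:C) also without vehicle replicate 1, SLR10 replicate 1 or poly(I:C) replicate 2 or 3), at -0.97 to -0.83, -0.96 and -0.85 to -0.68 in that order. Trim41 was not called with any of the 3 RNAs without vehicle replicate 1, at -0.54, -0.57 and -0.50.

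Trim65, known to ubiquitinate the RNA sensor MDA5, fell with poly(I:C) and was not called with the others. It read 18.4, 16.9 and 21.7 CPM with SLR10, 21.5, 13.3 and 17.3 with SLR14, and 9.26, 6.73 and 7.11 with poly(I:C). It read 14.2, 16.8 and 11 CPM with pppNS, 19.2 and 17.2 with vehicle, and 16.2, 15.8 and 14.2 in naive mice. The 3 poly(I:C) libraries lay below each of the other 14. The level with poly(I:C) was 2.3-fold below vehicle (95% interval 1.66 to 3.18). Trim65 overlaps Trim47 on the same strand, and Trim47 was not called with any RNA, with a log2 change of -0.18 with poly(I:C).

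**Figure D3:**
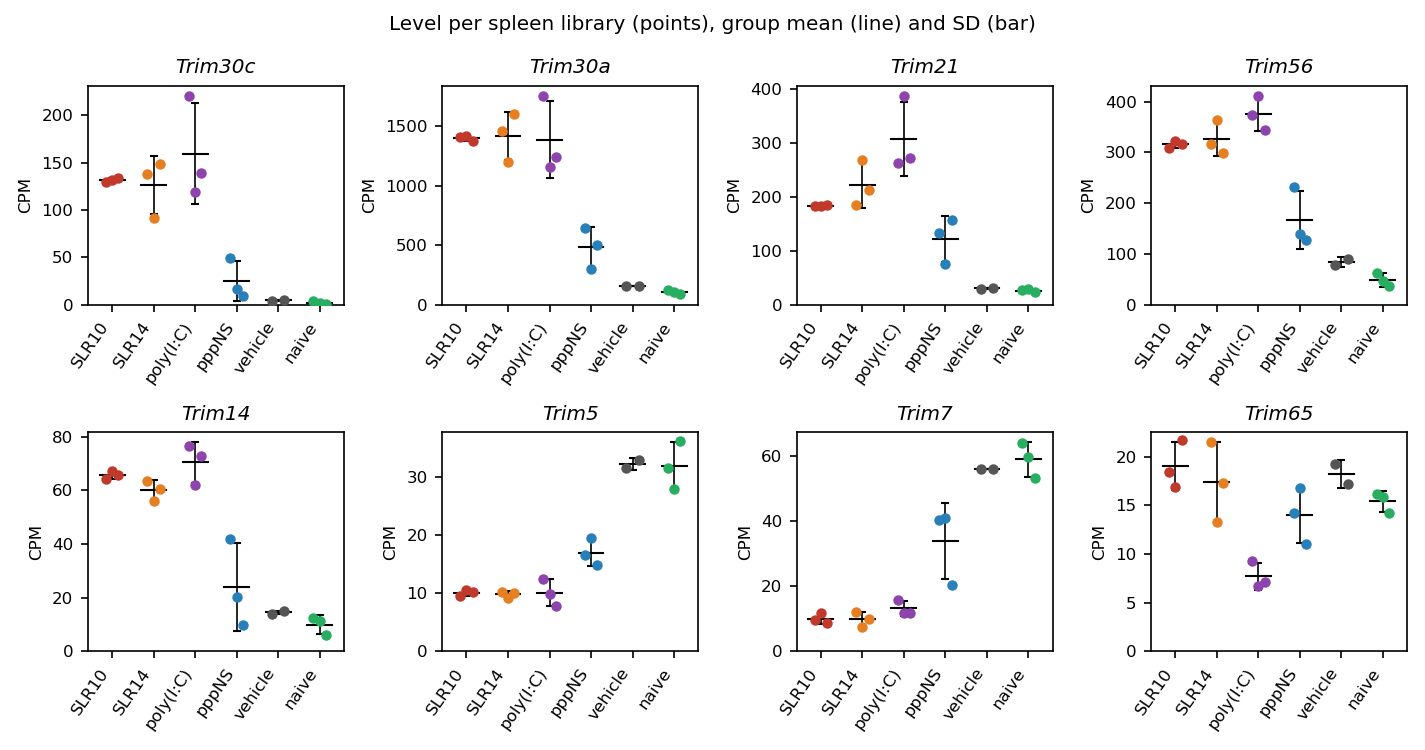
CPM in each library (points), with the group mean (line) and SD (bar), for 8 TRIM genes across the 6 groups; each vertical axis starts at 0. Trim30c, Trim30a, Trim21, Trim56 and Trim14 are high with SLR10, SLR14 and poly(I:C), Trim5 and Trim7 are low there, and Trim65 is low with poly(I:C), at 6.73 to 9.26 CPM.

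The TIF1 members are co-regulators of transcription that read chromatin. Of the 3 tested, Trim28 rose and Trim24 fell with the SLRs. Trim28, the co-repressor of KRAB zinc finger proteins known also as KAP1, read 137, 145 and 144 CPM with SLR10, 142, 134 and 120 with SLR14, and 108, 120 and 124 with poly(I:C). With vehicle it read 95.5 and 72.6 CPM, and in naive mice 102, 123 and 121, so the naive libraries overlapped those given SLR14 and poly(I:C). The rise over vehicle was 1.7-fold with SLR10 (1.32 to 2.2), 1.58-fold with SLR14 and 1.4-fold with poly(I:C). The poly(I:C) change turned to -0.12 (log2) under quantile scaling, under which neither SLR call held. The poly(I:C) call was lost without poly(I:C) replicate 2 or 3 or vehicle replicate 2 (0.29 to 0.47), and the SLR10 and SLR14 calls without vehicle replicate 2 (0.57 and 0.46).

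Trim24 read 14.9, 14.5 and 15 CPM with SLR10, 15.6, 17.9 and 15.4 with SLR14, and 21.4, 30.9 and 20.4 with poly(I:C). With pppNS it read 28.3, 31.2 and 26.2 CPM, with vehicle 32.6 and 30.9, and in naive mice 31.6, 27.3 and 29.5. The SLR libraries lay below all others. The fall was 2.11-fold with SLR10 (1.65 to 2.7) and 1.92-fold with SLR14. With poly(I:C) the change was -0.41 on the log2 scale and not called by limma on all libraries. It was called lower by edgeR on recovered reads, under median-of-ratios and quantile scaling, under the erythroid covariate, with naive and vehicle together as the control, and without poly(I:C) replicate 2. Trim33, a regulator of SMAD signalling, was not called with any RNA (-0.42 with SLR10) except with poly(I:C) under quantile scaling, and Trim66 stayed at 0.0356 to 0.421 CPM, under the level tested.

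Trim7, named for binding glycogenin, fell the most of all members with SLR10, SLR14 and poly(I:C). It read 9.46, 11.9 and 8.71 CPM with SLR10, 12.2, 7.36 and 9.83 with SLR14, and 15.9, 11.7 and 11.9 with poly(I:C). The pppNS libraries read 40.4, 40.9 and 20.5 CPM, both vehicle libraries 56, and the naive ones 64, 59.9 and 53.2. The pppNS libraries thus lay between the 2 sets, and their change of -0.78 (log2) was not called. The level was 5.42-fold below vehicle with SLR10 (95% interval 3.58 to 8.19), 5.6-fold with SLR14 and 4.18-fold with poly(I:C). Trim16 and Trim45, at most 1.83 CPM in any library, were also among the lower genes, Trim16 with 3 RNAs (-0.83 with SLR10) and Trim45 with SLR14 and poly(I:C). Trim16 lost its calls without vehicle replicate 2 (-0.71 with SLR10), with SLR14 also without SLR14 replicate 3 and with poly(I:C) without poly(I:C) replicate 2 or 3 or vehicle replicate 1. Trim45 lost that with SLR14 without SLR14 replicate 1, vehicle replicate 1 or vehicle replicate 2 (-0.75 to -0.58).

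Of 4 tested members known for roles in neurons, Trim3, Trim36 and Trim46 fell with SLR10, with SLR14 and with poly(I:C), beside 19.2%, 19.4% and 17.3% of all genes. Trim36 went from 4.9 and 3.87 CPM with vehicle to 2.02, 2.27 and 2.7 with SLR10, a change of -0.79 (SE 0.20). Trim46 changed by -0.93 (SE 0.23) and Trim3 by -0.59 (SE 0.20). The Trim3 call with SLR10 was lost when any 1 SLR10 or vehicle library was left out (-0.61 to -0.57), and with SLR14 without vehicle replicate 1 or without vehicle replicate 2 (-0.74 to -0.69). Trim36 was not called without vehicle replicate 1 with SLR10 (-0.63) or SLR14 (-0.71), and Trim46 not without vehicle replicate 2 with SLR14 or poly(I:C) (-0.89), nor without vehicle replicate 1 with SLR14. The germ cell list had 9 members, of which only Trim69 was tested. It rose 2.32-fold with SLR10, 2.64-fold with SLR14 and 2.11-fold with poly(I:C), from 0.237 and 0.258 CPM with vehicle to 1.17, 0.903 and 1.73 with SLR10. Trim69 passed the filter only through libraries given SLR10, SLR14 or poly(I:C). Without vehicle replicate 1, or without vehicle replicate 2, its poly(I:C) call was lost (log2 change 1.05 to 1.09). Trim69 overlaps Patl2 on the opposite strand, and the strand setting of the counting is not given in the sources used here. The same holds for Trim14 with Nans, Trim28 with Zbtb45, Trim41 with Rack1 and Trim46 with Krtcap2.

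Summed markers of other cell types moved with these groups. B cell markers (6 of 6) summed to 1523 to 1650 CPM for SLR10, 1110 to 1568 for SLR14, 1005 to 1428 for poly(I:C) and 1493 to 2445 for pppNS, against 1956 to 1960 with vehicle and 2120 to 2548 in naive mice. T cell markers (6 of 6) summed to 89 to 158 CPM with SLR10, SLR14 and poly(I:C), 213 to 269 with pppNS and 232 to 303 in the controls. Neutrophil markers (6 of 6) went the other way, at 376 to 1310 CPM with SLR10, SLR14 and poly(I:C), 230 to 921 with pppNS and 101 to 219 in the controls. Markers of conventional dendritic cells (6 of 6) summed to 61.2 to 78.9 CPM with SLR10, SLR14 and poly(I:C), 118 to 130 with pppNS and 134 to 166 in the controls, and those of red pulp macrophages (5 of 6) to 663 to 817, 933 to 1199 and 850 to 1196 CPM. Not every marker followed its sum with SLR10. Among B cell markers, Ms4a1 (mean 413 CPM, 354 with vehicle) and Pax5 (67.8, 55.8) were higher and the rest lower. Among red pulp markers, Spic (91.6, 70.9) and Vcam1 (335, 281) were higher and the rest lower. Batf3 (9.87, 7.1) was higher, unlike the other dendritic cell markers, and Cd8a hardly differed (62.7, 65.3). No measured marker of these lists was at 0 in all libraries, and their part in the TRIM changes was not tested. In bulk tissue, fewer cells of a type and less RNA per cell cannot be told apart.

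Among the SLR10, SLR14 and poly(I:C) libraries, Trim10 and Trim58, which act in maturing red cells, were high where erythroid markers were high. Trim10 read 4.47, 3.9 and 3.38 CPM with SLR10, 3.94, 142 and 6.03 with SLR14, and 1.38, 297 and 124 with poly(I:C). It read 69.8, 75.3 and 84.8 CPM with pppNS, 6.5 and 16.4 with vehicle, and 44.3, 23.5 and 35.1 in naive mice. The 3 SLR14 and poly(I:C) libraries above 100 CPM are the ones with high erythroid markers. Trim58 showed the same libraries high, at 15.5 CPM in SLR14 replicate 2 and 27.6 and 15.4 in poly(I:C) replicates 2 and 3, against 0.31 to 1.1 in the other SLR10, SLR14 and poly(I:C) libraries. With pppNS Trim58 read 7, 5.2 and 5.37 CPM. Erythroid markers summed to 75500 CPM in pppNS replicate 3, against 9399 and 8334 in replicates 1 and 2, with no like difference in either gene. Neither gene was called against vehicle with any RNA. Without poly(I:C) replicate 1, the one with low markers, both were called higher with poly(I:C). Without poly(I:C) replicates 2 and 3 and SLR14 replicate 2 the call for Trim10 was the opposite, lower, with poly(I:C) replicate 1 as the only poly(I:C) library.

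Among the SLR10, SLR14 and poly(I:C) libraries, Trim59 was highest in those where 6 markers of dividing cells were highest. The markers summed to 1899 CPM in SLR14 replicate 2 and 2768 and 1072 in poly(I:C) replicates 2 and 3. Trim59 read 65.9 CPM in SLR14 replicate 2, 105 and 44.7 in poly(I:C) replicates 2 and 3, and 58, 64.5 and 114 with pppNS. The remaining SLR10, SLR14 and poly(I:C) libraries read 14.5 to 20.6 CPM, below vehicle (37.8 and 39.5) and naive mice (53.2 to 58.8). Across groups Trim59 did not follow the markers, which summed to 193 to 262 CPM with vehicle and 312 to 424 in naive mice. Trim2 and Trim37 were also high in poly(I:C) replicate 2, at 11.1 and 28.1 CPM, and with pppNS read 8.94 to 11.1 and 18.2 to 23.7 CPM. With the mean erythroid marker level as a covariate, Trim2 and Trim59 were called lower with SLR10 and SLR14, and Trim59 also with poly(I:C). With SLR14 replicate 2 and poly(I:C) replicates 2 and 3 left out together, a set chosen after seeing the data, both were called lower with SLR14, and 15 TRIM genes rose and 15 fell with it. That leaves poly(I:C) with 1 library, assumed to vary like the other groups, for which 11 rose and 11 fell, Trim59 among the lower ones. The AGATAA motif, bound by GATA factors, was in 11.2% of all promoter windows. It was in 4 of the 65 TRIM windows, those of Trim10, Trim34b, Trim39 and Trim72, and not in that of Trim58.

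**Figure D4:**
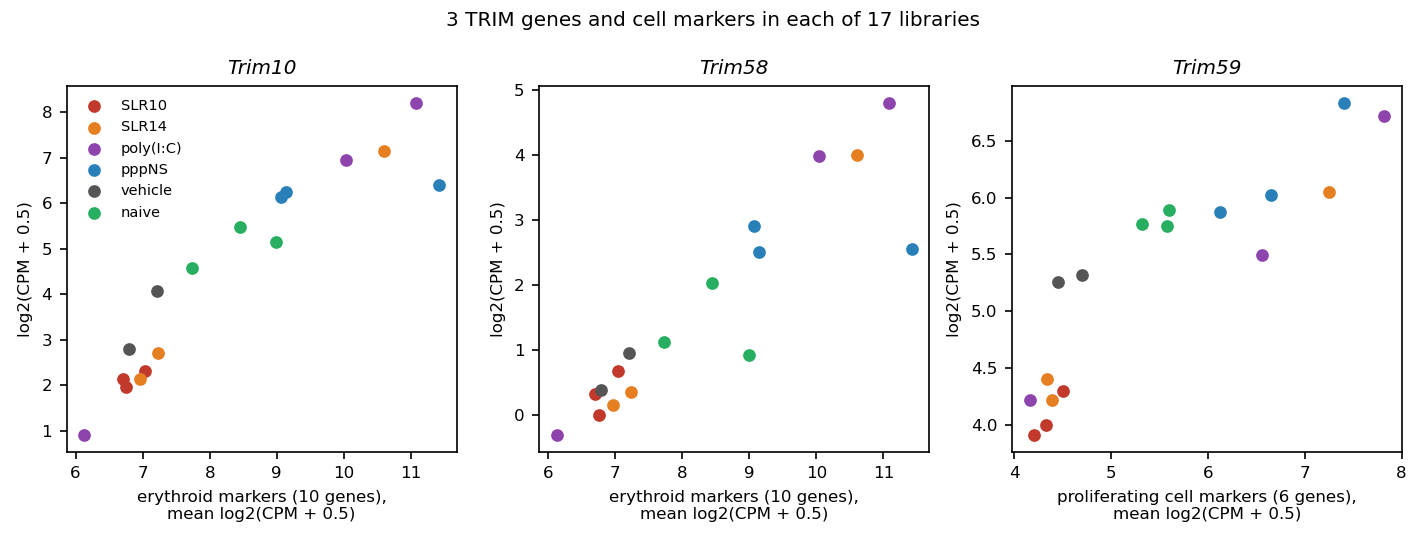
Log2(CPM + 0.5) of Trim10, Trim58 and Trim59 (vertical axes) against the mean log2(CPM + 0.5) of 10 erythroid or 6 proliferation markers (horizontal axes) in each of 17 libraries, coloured by group. Libraries of SLR14 and poly(I:C) fall at both ends: poly(I:C) replicate 1 has a mean erythroid level of 6.13 and replicate 2 one of 11.08.

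SLR14 and SLR10, both given at 25 µg per the labels, were not found to differ in any TRIM gene. Of the 43 tested, 0 were called by limma, 0 by edgeR on recovered reads and 0 had an unadjusted p under 0.05, and over all genes 0% were higher and 0% lower. The 95% interval of the difference lay within 2-fold for 37 of the 43. For Trim30a SLR14 stood at 1.01 times the SLR10 level (0.703 to 1.44), for Trim21 at 1.2 (0.843 to 1.7) and for Trim5 at 0.974 (0.765 to 1.24). For Trim10 the interval ran from 0.391 to 34.1, too wide to tell a large difference from none.

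Both SLRs together were set against poly(I:C), at doses not stated as equal. Trim65 was higher with the SLRs and Trim24 lower, and the other 41 tested genes were not called. Over all genes 1.66% were higher and 1.86% lower (232 and 260 genes, 47.2% of the calls higher, against 217 and 111 or 66.2% under quantile scaling). The difference for Trim65 was 1.18 on the log2 scale (SE 0.17, limma adjusted p = 0.00204), with the 6 SLR libraries at 13.3 to 21.7 CPM and the poly(I:C) libraries at 6.73 to 9.26. That for Trim24 was -0.60 (SE 0.13, limma adjusted p = 0.0223), with the SLR libraries at 14.5 to 17.9 CPM and the poly(I:C) libraries at 20.4 to 30.9. The count at an unadjusted p under 0.05 was 9. Trim21, with a difference of -0.59 (95% interval -1.03 to -0.15), was among those 9 but was not called. The Trim24 call was lost without SLR10 replicate 2, SLR10 replicate 3, SLR14 replicate 1 or poly(I:C) replicate 2 (-0.61 to -0.42), while 4 genes were lower without poly(I:C) replicate 1, Trim10, Trim58 and Trim59 besides Trim24. With SLR14 replicate 2 and poly(I:C) replicates 2 and 3 left out together, poly(I:C) has 1 library, assumed to vary like the other groups. The values were then 1.01 for Trim65 and -0.48 for Trim24, and neither was called.

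Against pppNS the SLRs differed widely, with 14 TRIM genes higher and 10 lower, while 22.8% of all genes were higher and 22.1% lower. The higher genes were the 4 Trim30 genes, Trim12a, Trim12c, Trim34a, Trim34b, Trim14, Trim21, Trim26, Trim44, Trim56 and Trim69. Trim30c differed by 2.64 (95% interval 1.79 to 3.48), Trim30d by 1.70, Trim30a by 1.60 and Trim14 by 1.59 on the log2 scale. The lower genes were Trim2, Trim5, Trim7, Trim23, Trim24, Trim35, Trim37, Trim41, Trim46 and Trim59. Of these, Trim59 differed by -1.77, Trim7 by -1.68 and Trim2 by -1.23. Trim59, Trim2 and Trim37 were high in poly(I:C) replicate 2, where the erythroid and dividing-cell markers were high. In SLR14 replicate 2, where those markers were also high, Trim2 (8.09 CPM) and Trim37 (19.2) lay above both vehicle libraries. In poly(I:C) replicate 3, where the markers were high too, Trim2 (6 CPM) and Trim37 (15) lay below or between the vehicle libraries. All 3 pppNS libraries had those markers high (751 to 1760 CPM summed for dividing cells, against 174 to 216 with SLR10), whose part was not tested. Without pppNS replicate 2, 6 genes were lower. Without SLR14 replicate 2 and poly(I:C) replicates 2 and 3, 13 were higher and 12 lower. Calls that were lost when 1 library was left out were those of Trim12a (0.28 to 0.62), Trim34b (0.32 to 0.55), Trim69 (0.43 to 0.65), Trim35 (-0.34 to -0.28), Trim46 (-0.51 to -0.42) and Trim37 (-0.74 to -0.67), each for 3 libraries or more. Those of Trim34a (0.34) and Trim41 (-0.31) were lost without pppNS replicate 2, that of Trim30b (0.85) without pppNS replicate 3, and that of Trim23 for several libraries.

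**Figure D5:**
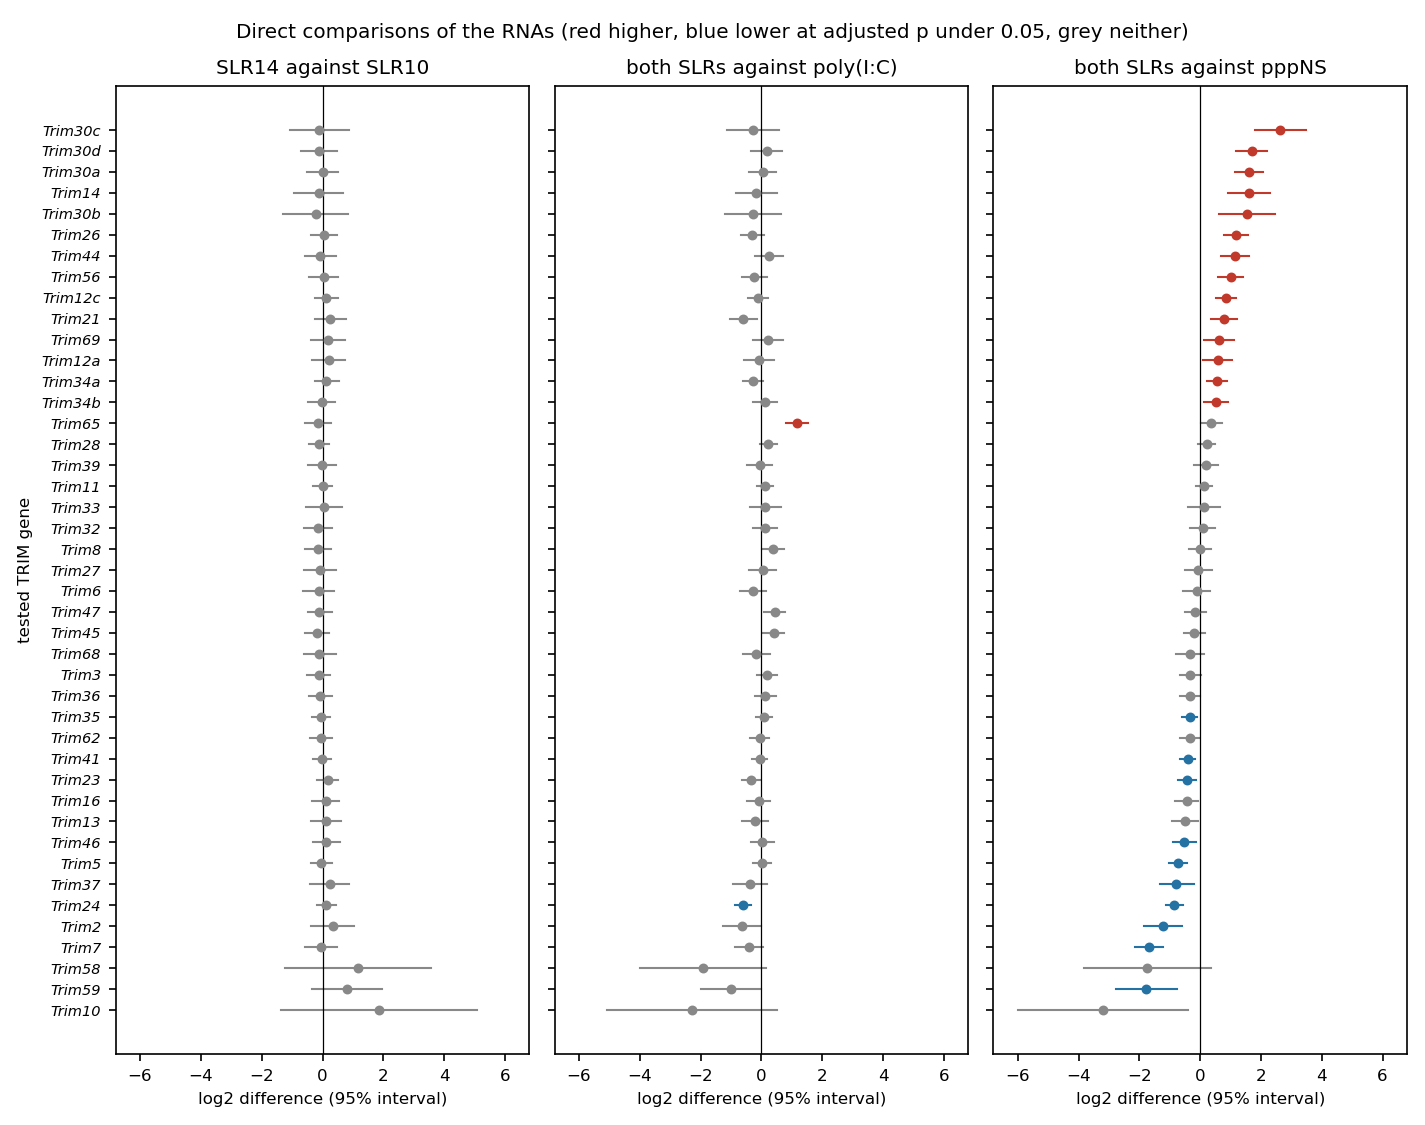
Log2 difference (horizontal axis) with its 95% interval for the 43 tested TRIM genes, for SLR14 against SLR10, both SLRs against poly(I:C) and both SLRs against pppNS; red is higher and blue lower at an adjusted p under 0.05. No gene is coloured in the first panel, Trim65 and Trim24 in the second, and 24 in the third.

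No TRIM gene was found to differ between vehicle (2 libraries) and naive mice (3): 0 were called by limma or by edgeR, and 3 had an unadjusted p under 0.05, while over all genes 0.0143% were higher and 0.0357% lower (2 and 5 genes, against 8 and 7 under quantile scaling). The 3 were Trim56 (0.80, 95% interval 0.27 to 1.33), Trim44 (0.64) and Trim28 (-0.46). Trim30a differed by 0.57 (-0.01 to 1.15). The 95% interval lay within 2-fold for 30 of the 43 tested genes, so larger differences in the others were not excluded.

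The calls with pppNS rested on both vehicle libraries. Without vehicle replicate 1, or without vehicle replicate 2, 1 gene (Trim21) was higher and 0 lower, with Trim30a at 1.52 to 1.54, Trim30d at 1.41 to 1.42, Trim12c at 0.96 to 1.03 and Trim5 at -0.94 to -0.88. Without pppNS replicate 1, Trim30c, Trim34a and Trim56 were not called. Over those libraries left out in turn, they stood at 1.42 to 2.17, 0.74 to 1.07 and 0.67 to 1.05. Under quantile scaling 4 genes were higher, and 4 with the erythroid covariate. With SLR10, 7 genes instead of 12 were lower without vehicle replicate 1, and with SLR14 7 were lower without vehicle replicate 1, and 7 without vehicle replicate 2.

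The remaining 23 members did not pass the filter. Trim42, Trim52, Trim54 and Trim60 had 0 reads in all 17 libraries, where 3 reads, the limit that a count of 0 allows, are 0.0525 to 0.129 CPM. Trim15 reached 1.85 CPM in poly(I:C) replicate 2 and 0.423 or less elsewhere. Trim17 was at 0.39 to 0.952 CPM with SLR10, SLR14 and poly(I:C), 0.17 to 0.249 with pppNS and 0.0525 to 0.239 in the controls. None of the 4 muscle members was tested: Trim63, the atrophy ligase MuRF1, had at most 0.455 CPM, Trim72 0.539 and Trim55 0.357. Trim38, an inhibitor of inflammatory signalling, reached 0.079 CPM and Trim31 a single read.

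The genes that work with TRIM ligases were read from 4 further lists. Of 16 tested ubiquitin-activating and conjugating enzymes, 6 rose and none fell with SLR10, 7 rose with SLR14 and with poly(I:C), and 1 rose with pppNS. Uba7, the activating enzyme of the ubiquitin-like ISG15, rose by 2.40 with SLR10, and Ube2e1, Ube2d3 and Uba1 by 1.41, 0.79 and 0.67. Of 11 deubiquitinases and related proteases, 5 rose with SLR10 and 2 with pppNS. Usp18, which removes ISG15, went from 15.5 ± 0.476 CPM with vehicle (SD, n = 2) to 656 ± 20.2 with SLR10 (SD, n = 3), a change of 5.36, and Usp25, Tnfaip3 and Otud5 rose by 2.46, 2.81 and 1.08.

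Of 20 nucleic acid sensors and adaptors, on several of which TRIM ligases act, 12 rose and none fell with SLR10, and 5 rose with pppNS. Irf7 rose by 4.45, Ifih1 (which encodes MDA5) by 4.71, Dhx58 by 3.91 and Mb21d1 (cGAS) by 3.19 with SLR10. Of 16 other ubiquitin ligases of innate signalling, 9 rose and 1 fell with SLR10, and 2 rose with pppNS. Rnf213 rose by 4.16, Rnf114 by 2.10, Birc3 by 1.66 and Rnf31 by 1.30. The counts of these 4 lists stand beside 20.2% of all genes that rose and 19.2% that fell with SLR10. With SLR14, poly(I:C) and pppNS, 19.3%, 18.6% and 2.95% of all genes rose.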

How the data were processed

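RNA sequencing of 17 mouse spleen libraries was analysed from 1 deposited table. Per the submitters' processing notes the tools included edgeR, HTSeq, SAMtools 1.4, FastQC, TopHat and TopHat2 2.0.6, and the genome was GRCm38 (mm10), with no role or order stated. Libraries were TruSeq Stranded mRNA, per the labels' protocols. The annotation version and strand setting of the counting are not given in the sources used here. Its values are a signal, scaled by the authors with edgeR and called CPM. Its columns sum to 696096 to 748327 in vehicle and naive libraries and 782210 to 1484240 with pppNS. With SLR10, SLR14 and poly(I:C) they sum to 1058768 to 1275805. Beside a plain share of reads, the scaling thus raised values in libraries given an RNA relative to the controls. Of the values, 100.0% are whole multiples of 1 step within 0.01 reads, so reads were recovered for edgeR. Of 39184 lines, 5 without a name, 699 named #N/D, 27 with names turned into dates and 113 repeats were left out. The 5 lines without a name held 28.1% to 46.1% of a library's reads. Of 67 matching TRIM names, 1 is not reported here.

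Values were taken as log2(CPM + 0.5) and fitted in limma 3.58.1 (R 4.3.3) with a mean-variance trend, in 1 model with a mean per group. Each comparison had its own Benjamini-Hochberg adjustment, over the 14012 genes that reached 1 CPM in 2 or more libraries, with a threshold of 0.05. The pooled spread stands in for the small groups. The script was tested on simulated reads with known changes, for SLR10 against vehicle. It called 17% of 100 genes changed 2-fold and 78% of 100 changed 4-fold. No other gene was changed among the 14012, while 20.2% of genes rose and 19.2% fell in the data. The adjusted p was thus harder to pass in the simulation, whose shares are not those of the data. A gene that was not called may still have changed 2-fold or more, where its interval reaches that far. The alternatives tried were the pseudocounts 0.1 and 2, all genes unfiltered, median-of-ratios and quantile scaling, a replicate block, an erythroid covariate, edgeR 4.0.16 on recovered reads, naive and vehicle together as the control, and each library left out in turn. Leaving out 3 libraries together was added after the data were seen. No 2 replicates agreed within sampling noise. Counting limits cover counting error only.

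The members and lists were chosen with earlier results of these data known. Named with values were the 10 largest rises and falls for each RNA against vehicle, 5 in each direction elsewhere, all members of the locus, TIF1 and erythroid lists, and up to 2 of each other TRIM list (4 of each list of other genes). Values of Trim44, Trim47, Trim15, Trim17, Trim31, Trim38 and of Trim55, Trim63 and Trim72 were added after they were seen. Positions and exon lengths come from GENCODE vM21 (GRCm38) and promoter windows from RefSeq (GRCm38.p6).

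Replicate numbers were not taken to pair the libraries. Deviations of equal numbers had a median correlation of 0.03 (-0.52 to 0.80, over 0.1 in 15 of 40 pairs). Those of different numbers had -0.03 (-0.88 to 0.72, 27 of 80). Single equal-number pairs were high, at 0.80 for SLR14 and poly(I:C) replicates 1 and for their replicates 2, and 0.75 for pppNS and naive replicates 3. The medians therefore do not settle whether some libraries were paired.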

Additional observations from a re-analysis of the deposited data

How the results depend on the processing

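Of 106 called values of named TRIM genes, 60 were called under each alternative run for them. A pseudocount of 0.1 lost 1 call and 2 lost 0, while no filter lost 7, median-of-ratios scaling 2, the erythroid covariate 9 and edgeR on recovered reads 4. Quantile scaling lost 18, besides 1 that changed sign and was not called either. The only value to change sign was that of Trim28 with poly(I:C), to -0.12 under quantile scaling. With 1 library left out in turn, the number lower was 7 to 11 with SLR10 and 7 to 12 with SLR14. For pppNS it was 1 to 8 higher and 0 to 2 lower, for both SLRs against poly(I:C) 0 to 4 lower, and for both SLRs against pppNS 6 to 13 lower. For pppNS, 4 were higher under quantile scaling and 4 with the erythroid covariate, and 5 were lower with naive and vehicle together as the control. Against poly(I:C) the SLRs gave 2 lower with the erythroid covariate. The cause was not tested. Without SLR14 replicate 2 and poly(I:C) replicates 2 and 3 together they gave 0 higher and 0 lower, but poly(I:C) then has 1 library, so that 0 says nothing about stability.

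With the replicate number as a block, 14 rose and 12 fell with each SLR, 12 rose and 11 fell with poly(I:C), where Trim28 and Trim68 lost their calls, and 7 rose and 1 fell with pppNS. The SLRs differed from pppNS in 14 higher and 13 lower, where Trim10, Trim13 and Trim16 gained calls, and from poly(I:C) in 1 and 1. The block made 0 calls between SLR14 and SLR10 and between vehicle and naive, and changed no other TRIM call. With 2 vehicle libraries, and 1 read worth 0.0175 to 0.0431 CPM, small changes of genes near 1 CPM could not be resolved. In simulated data most 2-fold changes with SLR10 against vehicle were not called, but far fewer genes were changed there than in the data.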

Other observations

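The tripartite family holds genes under other names, which the TRIM rule does not take in. Of 4 followed, Pml, Mid1 and Mefv rose and Mid2 fell with SLR10, with SLR14 and with poly(I:C). Over all genes 18.6% to 20.2% rose and 17.3% to 19.4% fell with these RNAs. Pml, the organiser of nuclear bodies, went from 130 ± 16.5 CPM with vehicle (SD, n = 2) to 1076 ± 72.9 with SLR10 (SD, n = 3), a log2 change of 3.05 (SE 0.25), and rose by 1.46 with pppNS. Mefv, which encodes the inflammasome protein pyrin, rose by 1.43 with SLR10. The paralogues Mid1 and Mid2, microtubule-bound ligases, went opposite ways. Mid1 changed by 2.54 (SE 0.35), from 1.22 ± 0.0181 CPM (SD, n = 2) to 9.54 ± 0.831 (SD, n = 3), and Mid2 by -2.06 (SE 0.25), from 6.32 ± 1.09 (SD, n = 2) to 1.14 ± 0.273 (SD, n = 3). With pppNS Mid2 fell by 1.00 on the log2 scale, while Mid1, at 0.91, was not called.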
